A study of Homo sapiens with 24 samples.

Results

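The mRNAs of TIGD5, C9orf69, ADAT3, TPGS1, FKBPL, C16orf91, NACC2 and TOR4A were followed here through a bromouridine pulse-chase, 8 genes of the 13416 kept for analysis and of the 25341 with a symbol in the deposited table. They were chosen by their measured values, as mRNAs whose labelled level was lower in induced than in uninduced cells at each time, so the difference between the arms is given below as a description and without a test. All 8 were found in the table and all 8 passed the filter on low levels, a library mean of 1 TPM or more. TPM is an estimate of transcript number that corrects for length and adds up to the same sum in every library.

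The cells were U2OS, a human osteosarcoma line, made into a stable line in which a tetracycline-off switch controls TOB2 S254D, a mutant of TOB2 in which an aspartate stands in for a phosphorylated serine. Uninduced cells received doxycycline and induced cells did not, so the drug and the mutant protein cannot be told apart, and the sources do not say whether the line is 1 clone. RNA was taken from the cytoplasm at 0, 0.5, 1, 2, 4 and 6 h of chase and its bromouridine-labelled share was captured with an antibody. Each of the 12 groups of arm and time held 2 libraries, 24 in all, and nothing in the labels states that these came from separate cultures. The p-values of level differences therefore measure only the spread between libraries, which may be technical. Those of slopes also hold the departure of a gene from a straight line. Sequencing depth was unknown. TPM is a share of the labelled RNA in a library, and labelled RNA still arriving in the cytoplasm during the chase was not separable from loss. In such pooled material, fewer cells making an mRNA and less of it per cell cannot be told apart either.

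TOB2 and its relatives of the BTG/TOB family bind the CCR4-NOT complex, which shortens the poly(A) tail of mRNAs, the usual first step of cytoplasmic mRNA decay. In a pulse-chase, an mRNA made before the chase and degraded quickly becomes a smaller share of the labelled RNA with time, and a stable one becomes a larger share. A gap between arms already present at 0 h therefore concerns the labelled RNA at the start of the chase, and a gap that opens later concerns its course during the chase.

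TOB2 itself read 92.3 to 267 TPM in uninduced and 499 to 725 TPM in induced libraries, with transgene and endogenous reads not separable. The 2 libraries of a group correlated at Pearson's r of 0.970 to 0.986 across genes, which are not independent replicates. RMRP, MIR6723 and RPPH1, abundant noncoding RNAs, took 7.78% to 22.6% of the TPM in uninduced and 7.14% to 27.5% in induced libraries. The models were also fitted without them, and calls on named genes that then moved are given beside those genes. Why those calls moved was not tested. Of 10 mesenchymal and bone markers 4 were kept, VIM (mean 580.4 TPM), COL1A1 (12.5), RUNX2 (4.13) and BGLAP (1.72). SPARC, FN1, ALPL, SP7 and THY1 stayed at or under 1.24 TPM and IBSP was listed at 0. Epithelial CDH1 reached at most 0.57 TPM and EPCAM was listed at 0, and leukocyte PTPRC and CD3E reached at most 0.6 and 0.11 TPM.

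The working description of the genes as short mRNAs was not checked, because transcript lengths were not used here. Each gene was measured through 1 RefSeq transcript except C9orf69, which had 2. Symbols are those of the table, in which C9orf69 is the gene RefSeq now names TMEM250 and C16orf91 the gene it names UQCC4. No gene of the table had values identical to those of any of the 8. C9orf69, NACC2 and TOR4A lie on chromosome 9, ADAT3 and TPGS1 on chromosome 19, FKBPL on chromosome 6 and C16orf91 on chromosome 16.

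The RefSeq promoter table (GRCh38.p14) held 7 windows of 300 bases around annotated starts for 6 of the 8 genes. Their GC content ran from 58.3% to 80.7%, against a median of 64.7% over 14822 windows of the genes kept. They held 14 to 45 CpG dinucleotides, and 5 of the 7 exceeded the median of 25. GGGCGG, the core of the motif of SP1-type zinc finger proteins, was found on either strand in 3 of the 7 windows, against 65.4% of the windows of genes kept. CCAAT was found in 1 window, that of TPGS1 (35.3% of windows), and TATAAA in none of the 7 (6.54%). These matches are descriptions of letters, not of bound sites. The 200 bases upstream of the start are shown here for genes that differ in these features, with GGGCGG or its complement CCGCCC in capitals. ADAT3 (chr19:1905199-1905398, plus strand) and NACC2 (chr9:136095290-136095489, minus strand) hold the motif, and the ADAT3 window is also that of SCAMP4, a gene compared with it further on. In NACC2 the matches overlap by 1 base. C16orf91 (chr16:1420748-1420947, minus strand), whose gap opened along the chase, and TPGS1 (chr19:507297-507496, plus strand), the least abundant of the 8, lack it.
ADAT3: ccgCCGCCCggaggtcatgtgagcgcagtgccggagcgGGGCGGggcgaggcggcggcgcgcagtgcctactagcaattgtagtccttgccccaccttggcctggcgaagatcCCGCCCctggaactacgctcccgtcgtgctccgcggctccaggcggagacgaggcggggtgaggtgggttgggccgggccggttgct
NACC2: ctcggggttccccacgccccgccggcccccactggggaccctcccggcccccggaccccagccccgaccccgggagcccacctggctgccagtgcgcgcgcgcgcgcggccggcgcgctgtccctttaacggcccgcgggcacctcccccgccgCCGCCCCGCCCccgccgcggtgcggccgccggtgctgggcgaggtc
C16orf91: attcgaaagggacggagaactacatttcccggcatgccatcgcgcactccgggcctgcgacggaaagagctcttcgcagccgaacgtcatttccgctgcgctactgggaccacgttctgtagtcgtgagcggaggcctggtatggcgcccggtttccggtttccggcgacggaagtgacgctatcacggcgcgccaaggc
TPGS1: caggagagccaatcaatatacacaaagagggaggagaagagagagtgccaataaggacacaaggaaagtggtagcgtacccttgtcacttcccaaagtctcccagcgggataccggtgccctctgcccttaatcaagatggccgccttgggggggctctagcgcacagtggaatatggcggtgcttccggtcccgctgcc

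At 0 h in uninduced cells, C16orf91 was the most abundant of the 8 on the TPM scale, at 349 ± 18.7 TPM (SD, n = 2). ADAT3 (109.2 ± 4.78), TOR4A (97.6 ± 18.3) and C9orf69 (92.3 ± 8.17) followed, each overlapping the next in its libraries. FKBPL (76.8 ± 0.622) and TIGD5 (72.3 ± 9.21) overlapped each other and lay below C9orf69. NACC2 stood at 49.2 ± 1.55 TPM and TPGS1, the lowest, at 8.89 ± 0.113 TPM. By mean level over all libraries C16orf91 ranked 580 and TPGS1 9194 among the 13416 genes.

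All 8 mRNAs had both induced libraries below both uninduced libraries at each of the 6 times. The choice of genes fixes that count, so nothing is read from it. After quantile normalization, median-of-ratios scaling, removal of the 3 noncoding RNAs or restriction to protein-coding transcripts, C16orf91 kept the separation at 4 or 5 of the 6 times and the other 7 at all 6. Among all genes kept, 230 did the same, which is 1.71%. Averaged over the 6 times, the difference (induced minus uninduced, on the log2(TPM + 1) scale) ran from -1.03 for TIGD5 to -0.51 for TOR4A, with a median of -0.84 against 0.051 over all genes kept. Of the 230 genes, 65 differed at least as much as TOR4A, and the median of the 230 was -0.42. TIGD5 ranked 1, TPGS1 3, C9orf69 4, ADAT3 6, FKBPL 7 and C16orf91 26 among the 230 by mean difference, while ZNF837 (-0.98) ranked 2 and MAFA (-0.88) ranked 5. Of all genes kept, 11.4% were lower and 14.3% higher in induced cells over the 6 times at an adjusted p under 0.05 (limma, Benjamini-Hochberg).

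**Figure D1:**
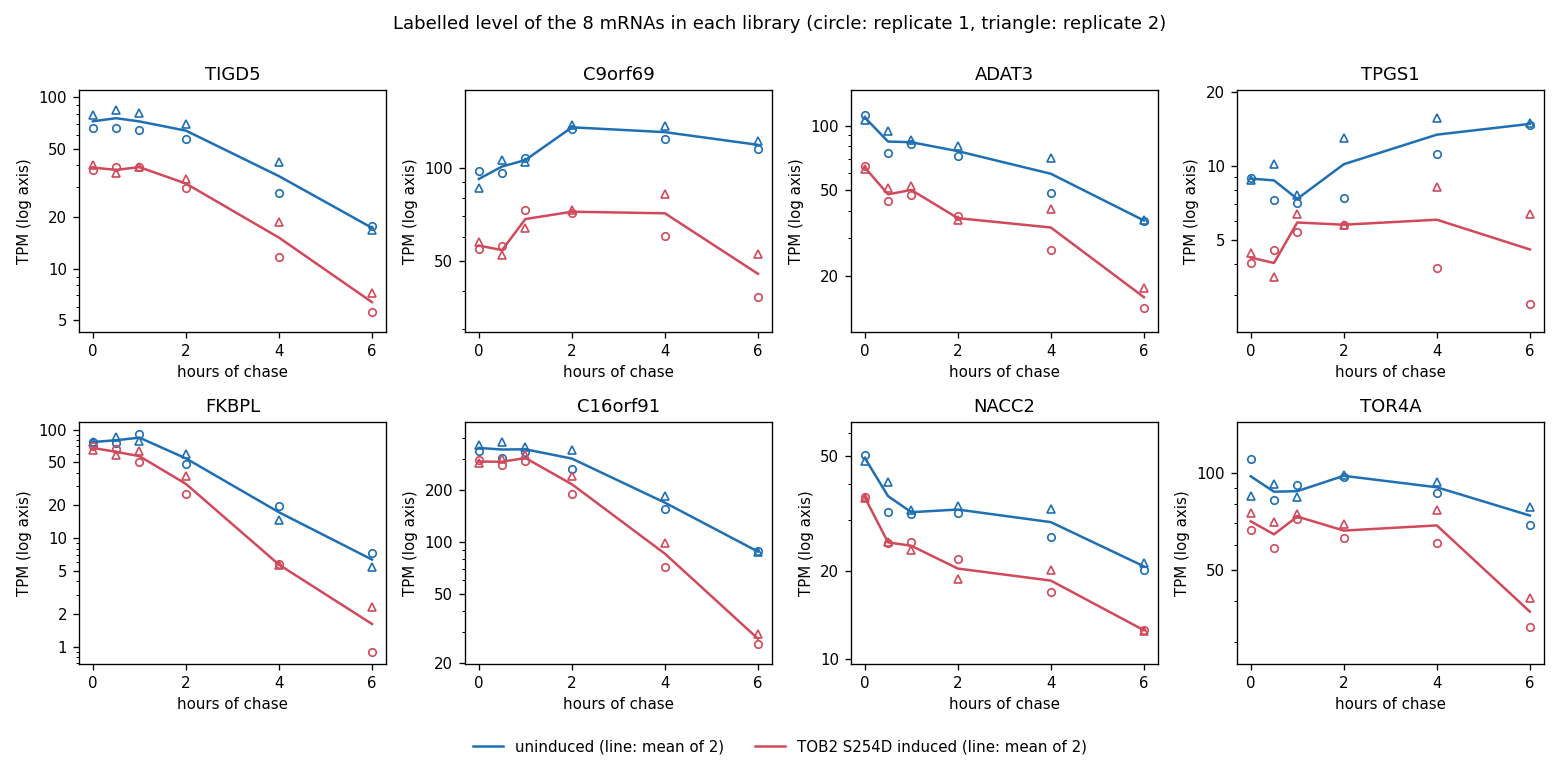
Labelled level of each mRNA in every library, in TPM on a log axis, against hours of chase. Blue is uninduced and red is induced, circles and triangles are replicates 1 and 2, and lines join the means of 2 libraries. The red points lie below the blue points at every time in all 8 panels. The level of FKBPL spans 0.9 to 90.2 TPM and that of TPGS1 2.77 to 15.6 TPM.

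The 8 mRNAs differed in when the gap was present. In TIGD5, C9orf69, ADAT3 and TPGS1 the induced mean at 0 h was 0.479 to 0.607 of the uninduced mean. In NACC2 and TOR4A it was 0.731 and 0.725. In C16orf91 and FKBPL it was 0.834 and 0.881 at 0 h and fell to 0.314 and 0.255 at 6 h. In all 8 the ratio was lower at 6 h than at 0 h.

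TIGD5 belongs to the tigger family of genes derived from pogo-like DNA transposons, and its function is not well known. In uninduced cells its libraries held 65.8 and 78.8 TPM at 0 h, 66.2 and 84.4 at 0.5 h, 63.9 and 80.3 at 1 h, 57.3 and 70.1 at 2 h, 27.6 and 41.6 at 4 h, and 17.8 and 16.8 at 6 h. Induced libraries held 37.4 and 40.2 TPM at 0 h, 39.3 and 36.0 at 0.5 h, 39.0 and 39.1 at 1 h, 29.6 and 33.1 at 2 h, 11.8 and 18.6 at 4 h, and 5.56 and 7.2 at 6 h. The arms never overlapped. Both held their level for the first hour, and libraries then fell without overlap from 1 h on in induced and from 2 h on in uninduced cells. The induced mean was 0.537 of the uninduced mean at 0 h and 0.369 at 6 h. The mean difference was -1.03 (SE 0.085), the largest of the 8, an induced level of 0.491 of the uninduced level on that scale. TIGD5 fell along the chase in both arms, with a slope of -0.35 log2 per hour in uninduced cells (SE 0.034, limma adjusted p = 6.31e-09) and of -0.42 in induced cells (SE 0.034, limma adjusted p = 1.66e-10). The slope difference was -0.073 (SE 0.049).

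ADAT3 is the partner of ADAT2 in the enzyme that deaminates the wobble adenosine of tRNAs to inosine. Uninduced libraries held 113 and 106 TPM of its mRNA at 0 h, 74.3 and 94.4 at 0.5 h, 81.8 and 85.7 at 1 h, 71.99 and 80.2 at 2 h, 48.7 and 70.7 at 4 h, and 35.8 and 36.4 at 6 h. Induced libraries held 64.8 and 62.9 TPM at 0 h, 44.7 and 51.1 at 0.5 h, 47.7 and 52.6 at 1 h, 37.9 and 36.2 at 2 h, 26.3 and 40.7 at 4 h, and 14.2 and 17.5 at 6 h. Both arms dropped between 0 and 0.5 h with no overlap of libraries, and induced libraries were below uninduced ones throughout. The ratio of means stayed between 0.487 and 0.599 up to 4 h and was 0.439 at 6 h. ADAT3 fell with a slope of -0.23 log2 per hour in uninduced cells (SE 0.028, limma adjusted p = 1.96e-07) and of -0.28 in induced cells (SE 0.028, limma adjusted p = 4.62e-09). Its mean difference was -0.88 (SE 0.075), and its slope difference was -0.054 log2 per hour (SE 0.040).

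C9orf69 encodes a small transmembrane protein. Uninduced libraries held 98.1 and 86.6 TPM at 0 h, 96.5 and 106 at 0.5 h, 108 and 105 at 1 h, 134 and 138 at 2 h, 125 and 137 at 4 h, and 115 and 123 at 6 h. Induced libraries held 54.7 and 57.4 TPM at 0 h, 56.1 and 52.3 at 0.5 h, 73.02 and 63.8 at 1 h, 71.4 and 73.1 at 2 h, 60.3 and 82.5 at 4 h, and 38.2 and 52.6 at 6 h. Both arms peaked in their means at 2 h, and from 4 to 6 h the libraries of each arm fell without overlap. At 6 h the mean was 129.1% of its 0 h value in uninduced and 80.9% in induced cells. Neither straight-line slope passed the test, at 0.061 log2 per hour in uninduced cells (SE 0.032, limma adjusted p = 0.0965) and -0.036 in induced cells (SE 0.032, limma adjusted p = 0.314). The slopes depended on the window: from 0 to 2 h both arms rose, by 0.27 log2 per hour in uninduced cells (limma adjusted p = 0.00116) and 0.21 in induced cells (limma adjusted p = 0.00623). The induced slope also depended on the scaling, and with median-of-ratios scaling over all times it was -0.072 (limma adjusted p = 0.0228). It passed as a fall too after quantile normalization (-0.097), without the 3 noncoding RNAs (-0.084), with protein-coding transcripts alone (-0.095) and from 1 to 6 h (-0.12). The mean difference was -0.90 (SE 0.059). The transcript row NM_152833 carried most of the level, with means of 74.5 and 37.9 TPM at 0 h and 102.3 and 38.8 TPM at 6 h in uninduced and induced cells. In the row NM_001256526 the arms were alike at 0 h, at 17.9 and 18.2 TPM, and overlapped up to 1 h. By 6 h they stood at 16.9 and 6.62 TPM without overlap. The split of reads between these 2 rows is an estimate and its error was not given in the sources used here.

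TPGS1 is a subunit of the tubulin polyglutamylase complex, which adds glutamate chains to tubulin. Its uninduced libraries held 8.97 and 8.81 TPM at 0 h, 7.29 and 10.2 at 0.5 h, 7.09 and 7.63 at 1 h, 7.4 and 12.9 at 2 h, 11.2 and 15.6 at 4 h, and 14.6 and 15.0 at 6 h. Induced libraries held 4.06 and 4.46 TPM at 0 h, 4.56 and 3.54 at 0.5 h, 5.42 and 6.39 at 1 h, 5.78 and 5.79 at 2 h, 3.88 and 8.24 at 4 h, and 2.77 and 6.42 at 6 h. Its libraries spread more than those of the others, and the arms came nearest at 1 h, with a ratio of 0.802. The ratio was 0.479 at 0 h and 0.311 at 6 h. TPGS1 was the only one of the 8 to rise in a slope over the whole chase, by 0.14 log2 per hour in uninduced cells (SE 0.041, limma adjusted p = 0.00468), and that call was lost from 0 to 2 h (0.059, adjusted p = 0.774) and without uninduced series 1 (adjusted p = 0.0686) or series 2 (adjusted p = 0.0563), a series being the 6 libraries of an arm with the same replicate number. In induced cells the slope was 0.0069 (SE 0.041, limma adjusted p = 0.888). The mean difference of -0.91 (SE 0.13) is damped by the pseudocount of 1, which weighs most on low levels.

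FKBPL is an immunophilin-like protein that works with the chaperone HSP90. Uninduced libraries held 77.3 and 76.4 TPM at 0 h, 74.95 and 84.6 at 0.5 h, 90.2 and 78.4 at 1 h, 48.5 and 59.99 at 2 h, 19.9 and 14.7 at 4 h, and 7.21 and 5.46 at 6 h. Induced libraries held 70.5 and 64.8 TPM at 0 h, 66.2 and 58.6 at 0.5 h, 50.3 and 63.4 at 1 h, 25.6 and 37.5 at 2 h, 5.76 and 5.62 at 4 h, and 0.9 and 2.33 at 6 h. The arms started close together and parted step by step, with ratios of means of 0.881, 0.782, 0.675, 0.582, 0.329 and 0.255 at the 6 times. FKBPL had the steepest fall of the 8, with a slope of -0.62 log2 per hour in uninduced cells (SE 0.043, limma adjusted p = 1.81e-11) and -0.85 in induced cells (SE 0.043, limma adjusted p = 2.88e-14). At 6 h, 8.24% of the 0 h mean was left in uninduced and 2.39% in induced cells. The difference at 0 h was -0.18 (SE 0.23), within its standard error, and at 6 h it was -1.53 (SE 0.23). The slope difference was -0.24 (SE 0.060).

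C16orf91 encodes an assembly factor of complex III of the respiratory chain. Its uninduced libraries held 336 and 362 TPM at 0 h, 305 and 379 at 0.5 h, 331 and 355 at 1 h, 265 and 341 at 2 h, 154 and 183 at 4 h, and 88.7 and 87.2 at 6 h. Induced libraries held 296 and 286 TPM at 0 h, 278 and 303 at 0.5 h, 295 and 316 at 1 h, 189 and 241 at 2 h, 71.8 and 99.2 at 4 h, and 25.7 and 29.6 at 6 h. The gap was narrow up to 1 h, with the lower uninduced library (304.94) just above the higher induced one (302.87) at 0.5 h, and wide from 4 h. Those 4 changes of scaling or transcripts left it without overlap at 4 or 5 of the 6 times. Its ratio of means was 0.834 at 0 h, 0.891 at 1 h, 0.507 at 4 h and 0.314 at 6 h. C16orf91 fell with a slope of -0.34 log2 per hour in uninduced cells (SE 0.035, limma adjusted p = 1.63e-08) and of -0.58 in induced cells (SE 0.035, limma adjusted p = 1.16e-12), a slope difference of -0.24 (SE 0.050). At 6 h, 25.2% of the 0 h mean was left in uninduced and 9.48% in induced cells. Its difference on the log2(TPM + 1) scale was -0.26 (SE 0.16) at 0 h and -1.64 (SE 0.16) at 6 h. The value at 6 h was the largest of the 8 on that scale. The ratio of means at 6 h was lower in FKBPL (0.255) and TPGS1 (0.311), whose lower levels the pseudocount of 1 damps more.

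NACC2 is a BTB-domain transcriptional repressor. Uninduced libraries held 50.3 and 48.1 TPM at 0 h, 32.0 and 40.8 at 0.5 h, 31.4 and 32.6 at 1 h, 31.8 and 33.6 at 2 h, 26.4 and 32.8 at 4 h, and 20.3 and 21.4 at 6 h. Induced libraries held 36.1 and 35.9 TPM at 0 h, 25.1 and 25.3 at 0.5 h, 25.3 and 23.8 at 1 h, 22.1 and 18.9 at 2 h, 17.0 and 20.2 at 4 h, and 12.6 and 12.5 at 6 h. The curves ran side by side: both dropped in the first 0.5 h, and the ratio of means stayed between 0.603 and 0.766. NACC2 fell with a slope of -0.15 log2 per hour in uninduced cells (SE 0.025, limma adjusted p = 1.15e-05) and of -0.20 in induced cells (SE 0.025, limma adjusted p = 2.18e-07). The mean difference was -0.55 (SE 0.052) and the slope difference -0.045 (SE 0.036).

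TOR4A belongs to the torsins, AAA+ ATPases of the endoplasmic reticulum. Uninduced libraries held 111 and 84.7 TPM at 0 h, 82.6 and 92.4 at 0.5 h, 91.6 and 84.0 at 1 h, 97.3 and 98.6 at 2 h, 86.6 and 93.9 at 4 h, and 69.1 and 78.5 at 6 h. Induced libraries held 66.7 and 74.9 TPM at 0 h, 58.4 and 70.6 at 0.5 h, 72.03 and 74.5 at 1 h, 63.0 and 69.6 at 2 h, 60.6 and 77.0 at 4 h, and 33.3 and 41.1 at 6 h. Neither arm fell steadily up to 4 h, and both arms fell between 4 and 6 h without overlap. At 6 h, 75.6% of the 0 h mean was left in uninduced and 52.5% in induced cells. TOR4A fell in induced cells with a slope of -0.12 log2 per hour (SE 0.028, limma adjusted p = 0.000328), and its uninduced slope of -0.045 (SE 0.028) did not pass (limma adjusted p = 0.155). With median-of-ratios scaling the uninduced slope was -0.094 and passed (limma adjusted p = 0.00374), as it did after quantile normalization (-0.12), without the 3 noncoding RNAs (-0.084) and with protein-coding transcripts alone (-0.090). The mean difference was -0.51 (SE 0.060), the smallest of the 8.

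**Figure D2:**
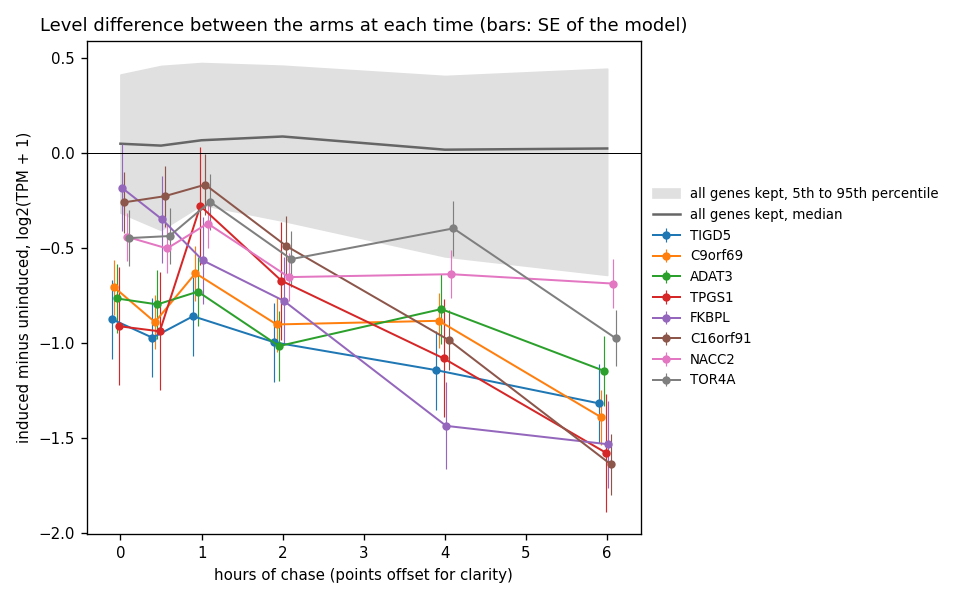
Difference between the arms at each time, induced minus uninduced on the log2(TPM + 1) scale, for each of the 8 mRNAs. Bars are the standard error of the model, points are offset sideways for clarity, and the grey band holds the 5th to 95th percentile of all genes kept. FKBPL and C16orf91 start at -0.18 and -0.26 and end at -1.53 and -1.64, while NACC2 goes from -0.44 to -0.69.

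Over the 8, the median difference was -0.58 at 0 h, -0.65 at 0.5 h, -0.47 at 1 h, -0.73 at 2 h, -0.93 at 4 h and -1.35 at 6 h. Over all genes kept the median at those times stayed between 0.018 and 0.087. The median slope difference was -0.088 log2 per hour for the 8 and -0.0094 for all genes. In each of the 8 the slope difference was negative, from -0.24 for C16orf91 to -0.045 for NACC2. These values come from the contrast that chose the genes. A gap that widened was not particular to the 8. Of the other genes lower without overlap at all 6 times, most of those with the largest mean differences also had a negative slope difference.

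The genes were not chosen by their slope within an arm, but both slopes use values that entered the choice. The induced slope also holds the slope difference given above, so the counts here are descriptions. In uninduced cells 5 of the 8 fell, where 22.3% of all genes fell. TPGS1 rose, where 42.8% of all genes rose, and C9orf69 and TOR4A did not pass. In induced cells 6 of the 8 fell, where 29% of all genes fell. None of the 8 rose in induced cells by limma, at an adjusted p under 0.05 or at an unadjusted one, where 41.6% of all genes rose. The median slope of the 8 was -0.19 log2 per hour in uninduced and -0.24 in induced cells, against 0.039 and 0.028 over all genes kept. A fall was not particular to the 8. Of the other genes lower without overlap at all 6 times, most of those with the largest mean differences also had negative slopes in both arms. With only 0 to 2 h in the model, 2 of the 8 (ADAT3 and NACC2) fell in uninduced cells, where 516 of all 13416 genes fell. In induced cells 4 of the 8 fell, where 655 of the 13416 fell, and TIGD5 and TOR4A no longer passed.

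**Figure D3:**
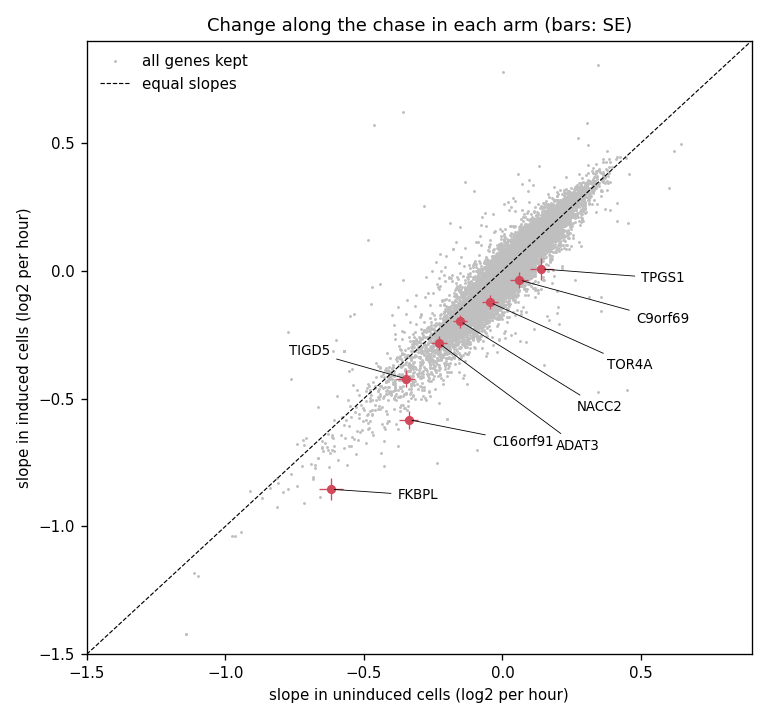
Slope along the chase in induced cells against that in uninduced cells, both in log2 per hour, for all genes kept (grey) and the 8 mRNAs (red, bars are standard errors). The dashed line marks equal slopes. All 8 lie below it, from FKBPL at -0.62 and -0.85 to TPGS1 at 0.14 and 0.0069.

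The 8 profiles over the 12 group means were not all alike. Pearson's r was 0.984 between FKBPL and C16orf91, 0.975 between ADAT3 and NACC2, and 0.922 between C9orf69 and TPGS1. Between TPGS1 and FKBPL it was -0.031. The points share their libraries, and the selected gap between arms enters every profile, so these are descriptions. With the mean profile of the 8, r ran from 0.522 for TPGS1 to 0.969 for ADAT3.

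Among other genes averaging 5 TPM or more, those most like the mean profile over the 12 group means were MRPS12 (r of 0.991), RPP25 (0.984), TRIM56 (0.984), PAQR4 (0.982) and PYGO2 (0.980). MRPS12, a protein of the small mitochondrial ribosomal subunit, went from 189.3 ± 5.66 to 150.1 ± 7.45 TPM between 0 and 6 h in uninduced cells and from 156.6 ± 5.03 to 96.9 ± 4.96 TPM in induced cells (SD, n = 2). RPP25, a protein subunit of RNase P and RNase MRP, went from 373.7 ± 15.3 to 255.4 ± 8.29 TPM in uninduced and from 280.2 ± 21.9 to 90.2 ± 4.76 TPM in induced cells. TRIM56, a ubiquitin ligase of antiviral signalling, went from 40.4 ± 8.75 to 24.8 ± 1.44 TPM and from 29.7 ± 4.46 to 16.8 ± 0.728 TPM in the same order. MRPS12, RPP25, PAQR4 and PYGO2 were lower in induced cells without overlap at all 6 times and TRIM56 at 5. Likeness was measured to a profile that holds the gap between arms.

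Relatives of the 8 gene products were set beside them, because the choice of genes did not use them. Of 50 relatives kept, in 7 lists, 9 were lower and 7 higher in induced cells in the mean over the 6 times and 34 did not pass (limma, adjusted p under 0.05 over all genes). Over all genes kept, 11.4% were lower and 14.3% higher, shares that stand beside each list below. The median of the 50 was -0.00081, near that of all genes. Without uninduced series 1 or 2 the lower calls came to 1 or 2, and the higher calls to 4 or 1. Without induced series 1 or 2 the lower calls came to 10 or 7 and the higher calls to 3 or 12.

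Neither of the other tRNA adenosine deaminases passed the test over all libraries. ADAT2, the partner of ADAT3, differed by 0.16 (SE 0.071, limma unadjusted p = 0.0399, adjusted p = 0.110), and ADAT1, which acts on another tRNA position, by 0.21 (SE 0.085, limma unadjusted p = 0.0253, adjusted p = 0.0799). Both passed as higher in some alternatives, ADAT1 in 10 of 40 and ADAT2 in 5 of 40, among them removal of the 3 noncoding RNAs (0.23, adjusted p = 0.0319, and 0.18, adjusted p = 0.0348), protein-coding transcripts alone (adjusted p = 0.0490 and 0.0269) and a replicate block (adjusted p = 0.0111 and 0.0276). Among 7 kept relatives of TPGS1 in tubulin glutamylation, NICN1, another subunit of that complex, was higher by 0.24 (SE 0.074, limma adjusted p = 0.025), and the other 6 did not pass. The call on NICN1 was lost in 11 of 39 alternatives, with 0.12 without uninduced series 2 (adjusted p = 0.511). TPGS2 differed by -0.11 (SE 0.064, limma adjusted p = 0.215) and the glutamylase TTLL4 by -0.092 (SE 0.051, limma adjusted p = 0.195). Both passed as lower after quantile normalization (TPGS2 -0.18, adjusted p = 0.0201, and TTLL4 -0.14, adjusted p = 0.0409) and with median-of-ratios scaling (-0.15, adjusted p = 0.0374, and -0.13, adjusted p = 0.0475).

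Of 12 FKBP immunophilins kept, 3 were higher and 9 did not pass. FKBP1A, the best known binder of FK506, was higher by 0.33 (SE 0.049, limma adjusted p = 0.000154), FKBP14 by 0.20 (SE 0.043, adjusted p = 0.00351) and FKBP2 by 0.26 (SE 0.074, adjusted p = 0.0168). With protein-coding transcripts alone FKBP14 differed by 0.074 and did not pass (limma adjusted p = 0.295). The calls on FKBP14 and FKBP2 were lost in 2 and 4 of 40 alternatives. Of 8 assembly factors of complex III, 2 were lower and 2 higher. C11orf83, now named UQCC3, was lower, at -0.24 (SE 0.047, limma adjusted p = 0.00145), a call lost in 3 of 40 alternatives. C12orf73 was lower too, at -0.13 (SE 0.048, limma adjusted p = 0.049), just under the threshold. Its induced libraries were lower without overlap at 2 times and higher at 1, and its call was not followed through the alternatives. LYRM7 was higher by 0.25 (SE 0.084, limma adjusted p = 0.0361) and TTC19 by 0.18 (SE 0.061, adjusted p = 0.0374). These calls were lost in 20 and 22 of 40 alternatives, many of them leaving out a single library, and without induced series 1 LYRM7 stood at 0.11 (adjusted p = 0.401) and TTC19 at 0.11 (adjusted p = 0.314).

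Among 6 torsins and cofactors, TOR2A was lower, at -0.43 (SE 0.065, limma adjusted p = 0.000199), the value nearest to that of its relative TOR4A. TOR1B was higher by 0.15 (SE 0.039, limma adjusted p = 0.0102). That call was lost in 5 of 40 alternatives, among them median-of-ratios scaling (adjusted p = 0.056) and leaving out either uninduced series. The other 4 did not pass. Of these, TOR1AIP1 differed by 0.086 (SE 0.039, adjusted p = 0.117) and passed as higher without the 3 noncoding RNAs (0.11, adjusted p = 0.0293) and with protein-coding transcripts alone (0.12, adjusted p = 0.0196). Of 8 tigger-derived genes and relatives, 4 were lower and the other 4 did not pass. TIGD3 was lower, at -0.55 (SE 0.11, limma adjusted p = 0.00238) at a mean of 2.1 TPM, TIGD2 at -0.29 (SE 0.074, adjusted p = 0.0102), JRKL at -0.22 (SE 0.056, adjusted p = 0.011) and POGK at -0.13 (SE 0.036, adjusted p = 0.0123). The calls on TIGD3, TIGD2 and JRKL were lost in 1 of 39, 4 of 40 and 3 of 40 alternatives, each without uninduced series 1 among others where there were more. Of 7 relatives of NACC2, its paralog NACC1 was lower, at -0.26 (SE 0.062, limma adjusted p = 0.00673) as was BTBD2, at -0.26 (SE 0.078, adjusted p = 0.0223). The calls on NACC1 and BTBD2 were lost in 4 and 5 of 40 alternatives, among them leaving out either uninduced series. The other 5 did not pass, among them BTBD1 at 0.10 (SE 0.045, limma adjusted p = 0.101). BTBD1 passed as higher in 5 of 40 alternatives: quantile normalization (adjusted p = 0.0423), removal of the 3 noncoding RNAs (0.12, adjusted p = 0.0164), protein-coding transcripts alone (adjusted p = 0.00929), and without induced replicate 2 at 0.5 h (adjusted p = 0.0284) or in all its series (adjusted p = 0.0361).

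**Figure D4:**
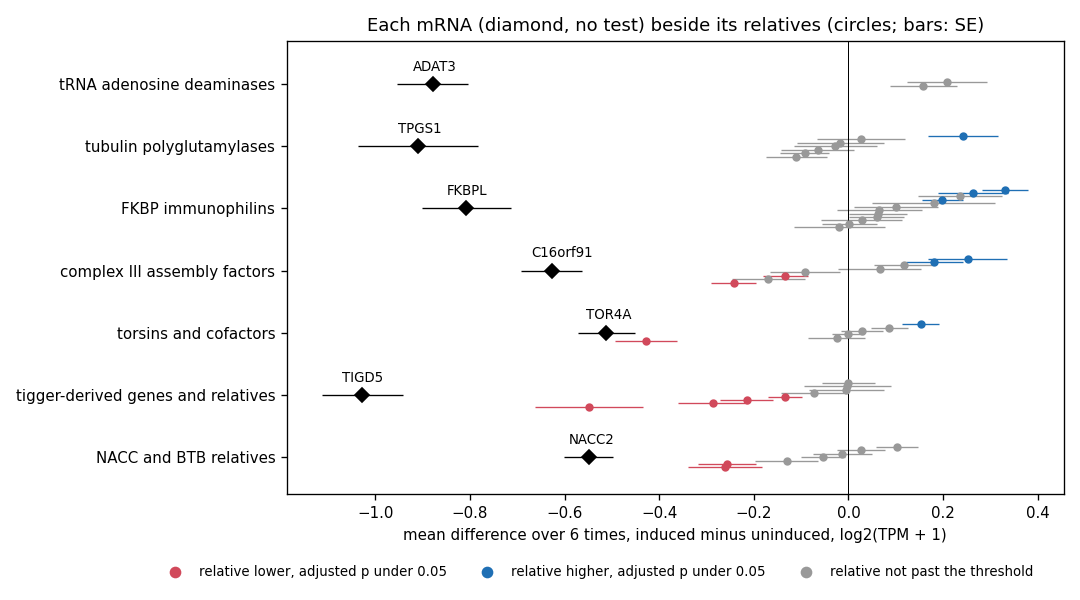
Difference between the arms averaged over the 6 times (induced minus uninduced, log2(TPM + 1) scale) for 7 of the 8 mRNAs (black diamonds, no test) and their relatives (circles, 50 genes in 7 lists). Red relatives were lower, blue ones higher and grey ones did not pass at an adjusted p of 0.05, and bars are standard errors. C9orf69 has no list. The diamonds of TOR4A and NACC2 lie at -0.51 and -0.55 and the other 5 at -0.63 or below, and TIGD3 at -0.55 is the lowest relative.

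Genes next to the 8 on their chromosomes were compared in the same way, by the order of genes in the RefSeq table. Of 16 such genes, 5 were lower and 1 higher in induced cells and 10 did not pass (limma, adjusted p under 0.05 over all genes), with a median of -0.080. Over all genes kept, 11.4% were lower and 14.3% higher. C9orf69 and NACC2 are themselves the nearest measured neighbours on chromosome 9, and the genes on their outer sides, QSOX2 (0.0024, SE 0.062) and UBAC1 (0.13, SE 0.051, limma adjusted p = 0.0783), did not pass. UBAC1 passed as higher without the 3 noncoding RNAs (0.15, adjusted p = 0.0209), with protein-coding transcripts alone (adjusted p = 0.0157), with a replicate block (adjusted p = 0.0401) and without induced replicate 2 at 0 h (adjusted p = 0.0404). ATF6B, beside FKBPL, differed by 0.18 (SE 0.074, limma adjusted p = 0.0764). It passed as higher without the 3 noncoding RNAs (0.21, adjusted p = 0.0386) and with protein-coding transcripts alone (0.22, adjusted p = 0.0315). ABHD17A, beside ADAT3, differed by -0.23 (SE 0.11, limma adjusted p = 0.123). It passed as lower after quantile normalization (-0.27, adjusted p = 0.0259) and with median-of-ratios scaling (-0.27, adjusted p = 0.023). MIER2, beside TPGS1, differed by -0.14 (SE 0.075, limma adjusted p = 0.189) and by -0.23 without induced series 1. NRARP, a feedback inhibitor of Notch signalling that lies next to TOR4A, was lower, at -0.76 (SE 0.051, limma adjusted p = 1.05e-07). It went from 73.6 ± 3.39 to 37.9 ± 0.721 TPM in uninduced and from 50.2 ± 0.346 to 12.6 ± 1.05 TPM in induced cells (SD, n = 2), without overlap at all 6 times. NELFB, on the other side of TOR4A, differed by -0.046 (SE 0.069, limma adjusted p = 0.657). CDC34 beside TPGS1 (-0.26, SE 0.063, adjusted p = 0.00633), CSNK1G2 beside ADAT3 (-0.20, SE 0.055, adjusted p = 0.0159) and UNKL beside C16orf91 (-0.22, SE 0.065, adjusted p = 0.0228) were lower by less than the gene they adjoin. Without uninduced series 1 the lower calls came to 1, and without uninduced series 2 or induced series 2 they came to 2.

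ADAT3 overlaps SCAMP4, which encodes a secretory carrier membrane protein, and both are annotated from the same start with the promoter window shown above. SCAMP4 moved the other way. Uninduced libraries held 20.5 and 12.7 TPM of SCAMP4 at 0 h and 42.3 and 39.4 TPM at 6 h. Induced libraries held 26.1 and 17.1 TPM at 0 h and 40.2 and 39.6 TPM at 6 h. The libraries of the arms overlapped at 0 h and 6 h, and induced libraries were higher without overlap at the 4 times between. The mean difference was 0.29 (SE 0.087, limma adjusted p = 0.0223), lost without uninduced series 2 (0.14, adjusted p = 0.420) and without induced series 1 (0.20, adjusted p = 0.264). Along the chase SCAMP4 had slopes of 0.20 and 0.15 log2 per hour in uninduced and induced cells, where ADAT3 had -0.23 and -0.28. TIGD5 overlaps PYCRL, a pyrroline-5-carboxylate reductase gene, which was lower, at -0.33 (SE 0.084, limma adjusted p = 0.0101) at a mean of 5.45 TPM. How reads shared by such overlapping genes were divided between them is not given in the sources used here, so their separate levels are uncertain.

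**Figure D5:**
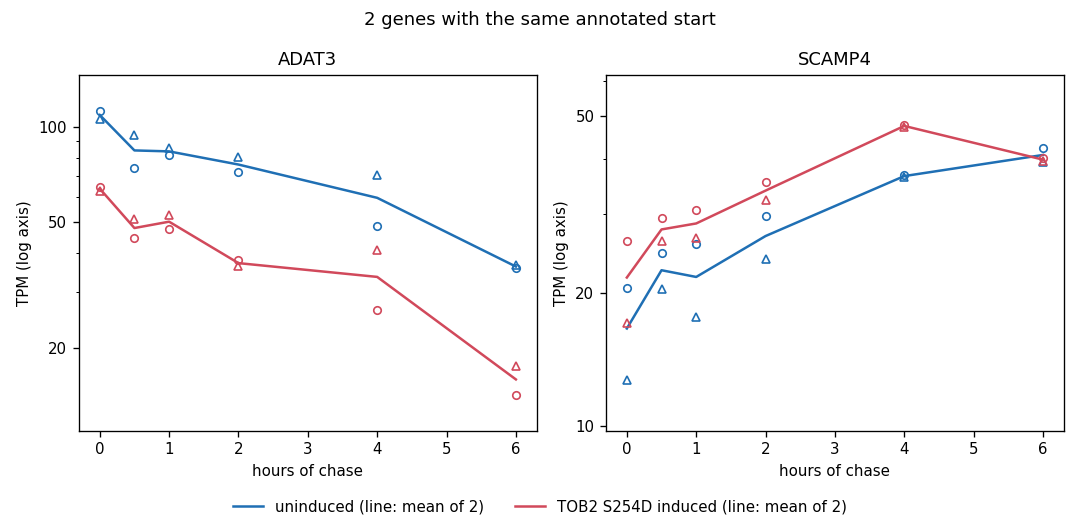
Labelled level of ADAT3 and SCAMP4, which share an annotated start, in every library, in TPM on a log axis, against hours of chase. Colours and symbols are as in the plot of all 8 mRNAs. ADAT3 falls in both arms and is lower in induced cells, and SCAMP4 rises from 16.6 to 40.8 TPM in uninduced cells and stands at 39.9 TPM in induced cells at 6 h.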

How the data were processed

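Bromouridine-labelled cytoplasmic RNA of U2OS cells was measured in 24 libraries, 2 for each of the 12 combinations of arm and time. The deposited values are TPM per RefSeq transcript; per the submitters' processing notes, Trim Galore, Bowtie2, RSEM 1.3.0 and hg19 were used, with no roles or settings given, and strandedness is not given in the sources used here. TPM of 48009 transcripts, 3 of them without a symbol, was summed to 25341 genes, and the 13416 with a mean of at least 1 TPM were kept. TPM hides depth, so no counting error was given.

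Using limma 3.58.1 under R 4.3.3, with the package data.table at version 1.17.8, 2 models were fitted on log2(TPM + 1): a line on hours per arm (20 residual degrees of freedom), and 12 group means (12 residual degrees of freedom). Tests were two-sided, with Benjamini-Hochberg adjustment over the genes kept and a threshold of 0.05. Neither model had a replicate term. Across 66 pairs of groups, differences between replicates 1 and 2 correlated at -0.0364 to 0.253 (median 0.0975), and 29 pairs were over 0.1. The main models did not take the numbers to pair libraries. A replicate block was fitted as an alternative, and the counts it changed are given at the end. The models were also run on simulated data with planted effects and noise drawn separately for each library. That run does not cover noise shared within a series.

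The 8 genes and the lists of relatives were chosen with earlier results of these data known. Named genes were all 8, up to 3 relatives per list with the smallest p, the nearest measured genes on each side, the 5 genes most like the mean profile, and TOB2. C12orf73 and POGK, beyond the 3 of their lists, and ZNF837 and MAFA were named after their values were seen. The calls on C12orf73 and POGK were not followed through the alternatives. Neighbours came from RefSeq (GRCh38.p14), used for order and promoter windows only; 13355 of 13416 genes matched. Python 3.11.15, pandas 2.3.3 and matplotlib 3.10.9 were used for annotation and plots. Alternatives covered pseudocount, filter, scaling, transcripts used, replicate block, variance trend, chase window and leaving out libraries or series.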

Additional observations from a re-analysis of the deposited data

Results flagged for a closer look

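RPP25 came up because its slope difference between the arms passed the threshold. It was named for likeness to a mean profile that holds the selected, widening gap, so its values are a description and no test. Its slope was -0.083 log2 per hour in uninduced and -0.26 in induced cells, a difference of -0.18 (SE 0.034), and its level was lower in induced cells at all 6 times.

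TOB2, the gene under the switch, had a slope that differed between the arms by the test of the difference itself. It was -0.21 log2 per hour in uninduced and 0.016 in induced cells, a difference of 0.22 (SE 0.038, limma adjusted p = 0.00807).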

How the results depend on the processing

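Over the 40 alternatives the mean difference ran from -1.17 to -0.88 for TIGD5, -0.82 to -0.29 for C16orf91 and -0.62 to -0.41 for TOR4A. It stayed negative in each of the 8 mRNAs, but nothing is read from that sign. The choice of genes fixes it in all alternatives other than the changes of scaling or transcripts. Leaving out a library or series can only keep or widen a separation already present. It could therefore not undo that of the 8, and it can only add genes to the count over all genes. Under both scalings, without the 3 noncoding RNAs and with protein-coding transcripts, 7 stayed without overlap and C16orf91 did not. The median difference of the 8, -0.84, was -0.60 with a pseudocount of 5, -0.60 at 0 to 2 h and -0.94 to -0.72 when a library or series was left out. Limiting the chase to 0 to 2 h turned the induced slope of C9orf69 (0.21) and the slope difference of TPGS1 (0.16) positive; 2 of the 8 then fell in uninduced cells, against 5, and 1 rose in induced cells (C9orf69), against 0. The riser in uninduced cells numbered 0 to 1 with libraries or series left out.

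Counts over all genes moved more. Genes higher in induced cells, 1922, came to 2964 without RMRP, MIR6723 and RPPH1, 2886 with protein-coding transcripts, 589 at 0 to 2 h and 237 to 3643 with libraries or series left out (237 without uninduced series 2, 818 without induced series 1, 892 without uninduced series 1, 3643 without induced series 2). Genes lower, 1532, came to 456 at 0 to 2 h and 627 to 1860 with libraries or series left out (627 without uninduced series 2, 701 without uninduced series 1). Rising genes made up 65.8% of slope calls in uninduced and 58.9% in induced cells, and 48.4% and 49.1% with median-of-ratios scaling, 51.8% and 44.7% without the 3 noncoding RNAs, 55.5% and 47.0% with protein-coding transcripts and 82.8% and 82.9% at 0 to 2 h. The higher share of the level calls, 55.6%, was 65.8% without the 3 RNAs and 67.7% with protein-coding transcripts, but 48.7% after quantile normalization, 45.9% with median-of-ratios scaling, 27.4% without uninduced series 2, 30.5% without induced series 1 and 74.5% without induced series 2. At 0 to 2 h, 516 genes fell and 2492 rose in uninduced cells, and 655 fell and 3171 rose in induced cells. Genes lower without overlap at all times, 230, came to 374 with median-of-ratios scaling, 439 at 1 to 6 h and 232 to 993 with libraries or series left out (447 and 500 without uninduced series 1 and 2, 993 and 349 without induced series 1 and 2).

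Relatives higher, 7, came to 12 without the 3 RNAs, 12 with protein-coding transcripts, 2 at 0 to 2 h and 1 to 12 with libraries or series left out; relatives lower, 9, to 2 at 0 to 2 h and 1 to 10. Neighbours higher, 1, came to 3, 3, 0 and 0 to 2 in that order and to 2 at 1 to 6 h; neighbours lower, 5, to 1 at 0 to 2 h and 1 to 7. With a replicate block, neighbours higher came to 2, genes lower to 1865 and genes higher to 2856, and no call on the 8 changed. The cause of these shifts was not tested. A comparison by transcript length was not run, since lengths were not used here.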
